A study of Mus musculus with 12 samples.

Results

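Collagens, laminins and integrins are the genes through which a cell builds the matrix around it and holds on to that matrix. They were described here in primary mouse hepatocytes, liver cells taken from the animal and kept in culture, after exposure to oleic acid (OA), which these cells store as lipid droplets, and to benzbromarone (BBR, a drug that lowers uric acid). Members were chosen by gene symbol alone: Col followed by a number, a and a number for collagens, Lam followed by a, b or c and a number for laminins, and any symbol opening with Itga or Itgb for integrins. This gave 87 of the 22471 features in the tables, made up of 44 collagens, 11 laminins and 32 integrin-named features. Of the last, Itgb1bp1, Itgb1bp2, Itgb3bp and Itgbl1 carry an integrin name without coding for an integrin subunit, and Itgam was listed under a pair of identifiers.

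RNA sequencing libraries came from 4 groups of 3: control (no OA and no BBR), OA, BBR, and BBR with OA (BBR+OA). The labels give liver as the tissue and describe the OA arms as a high-fat condition made by OA supplementation, and the study's methods describe hepatocytes of male C57BL/6J mice, freed by perfusion with collagenase, an enzyme that digests matrix collagen, and purified on Percoll, with OA bound to albumin. No transgene or deletion is named for any group, the 4 groups share tissue and strain, and the libraries hold cells in culture rather than liver taken directly. The labels call the replicates biological without saying whether they came from separate mice, so p-values here measure the spread between these libraries, which may be technical.

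As background, collagens are triple helices of alpha chains. Fibrillar collagens (types I, III and V) form the ropes of scar and are made in liver mainly by stellate cells and fibroblasts, whereas collagen IV is the mesh of basement membranes and collagens XV and XVIII sit at its edge. Laminins are cross-shaped trimers of 1 alpha, 1 beta and 1 gamma chain, joined to basement membranes and to the cells on them. Integrins are pairs of 1 alpha and 1 beta chain in the cell membrane that bind collagens, laminins or fibronectin outside and actin linkers inside.

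Total counts ranged from 15485498 to 23668371 per library, and 3 counts, taken as the floor of detection, were worth 0.126 to 0.193 CPM (counts scaled for library size and composition). Mitochondrial transcripts took 5.5 to 6.89% of counts, and no library was left out. The defining hepatocyte transcript Alb was between 27126 and 34442 CPM. Markers of other liver cells were also present: 14 endothelial markers summed to 128 to 138 CPM in control, 103 to 122 in OA, 132 to 145 in BBR and 119.7 to 123 in BBR+OA, and 15 stellate cell and fibroblast markers summed to 31.1 to 35.1 CPM in control, 34.6 to 39.5 in OA, 28.5 to 32.7 in BBR and 28.9 to 32.6 in BBR+OA. Much of the endothelial difference with OA was the gene Flt4 (values given with the laminins). In bulk RNA, fewer cells of a type and less RNA per cell cannot be told apart.

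Of the 87 members, 7 had no count in any library (5 collagens, Itgad and Itgbl1), and 55 had counts in all 12. A mean of at least 1 CPM was reached by 41 members (14 collagens, 8 laminins, 19 integrin-named), at least 10 CPM by 18 and at least 100 CPM by 7. Levels were compared between genes by the deposited FPKM, which scales for transcript length (mean ± SD, n = 3 control libraries). Itgb1, the common beta partner of the matrix-binding alpha chains, stood highest at 236 ± 2.8 FPKM. Itga3, an alpha chain for laminin, was at 57.4 ± 7.3, Itgav, an alpha chain for RGD-bearing proteins such as vitronectin, at 49.0 ± 3.1, and its partner Itgb5 at 43.9 ± 0.65. Among these last 3, the control libraries of Itga3 and Itgav overlapped, so their order was not resolved. Both lay above Itgb5 in every control library. Among laminins, Lamc1 was at 18.4 ± 0.56 FPKM and Lamb3 at 9.58 ± 1.2, whereas Lama3 was at 1.03 ± 0.24 and every other alpha chain was below 0.5. Among collagens, Col18a1 led with 41.4 ± 1.9 FPKM, followed by Col4a1 at 14.0 ± 0.44, Col4a2 at 9.88 ± 0.82, Col12a1 at 8.12 ± 0.95 and Col27a1 at 5.75 ± 0.48. The fibrillar collagens of scar were near the bottom, with Col1a1 at 0.330 ± 0.075, Col1a2 at 0.653 ± 0.047 and Col3a1 at 0.730 ± 0.017 FPKM, beside low stellate cell markers (sums above).

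Summed over each family, the means of the 4 groups stood in a different order in each class. Laminin transcripts summed to 263 ± 5.61 CPM in control (mean ± SD, n = 3), 219 ± 12.5 in OA, 273 ± 5.28 in BBR and 212 ± 3.36 in BBR+OA, and every library with OA lay below every library without it. Collagen transcripts summed to 502 ± 11.4, 506 ± 8.65, 458 ± 23.1 and 531 ± 6.70 CPM in the same order of groups, so that BBR libraries were lowest, BBR+OA libraries highest, and control and OA libraries overlapped. Integrin-named transcripts summed to 1689.8 ± 34.6, 1732 ± 56.2, 1819 ± 53.2 and 1618 ± 29.0 CPM, lowest in BBR+OA, where all 3 libraries lay below the other 9. These sums rest on the few most abundant members and were not tested, since 3 libraries against 3 cannot give an exact two-sided permutation p below 0.1.

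The first question was what OA did to these genes, which the design asks without BBR (OA against control) and with it (BBR+OA against BBR), in libraries that the pair of comparisons do not share. A gene is said to have risen or fallen where edgeR's quasi-likelihood test gave an adjusted p under 0.05, with p-values adjusted over all features tested, and sizes are differences in log2 units of CPM (1 unit is a doubling) with their SE. Without BBR, 49 members passed the filter on low counts and 23 changed, 11 higher and 12 lower, against a background of 42.8% of all 12418 features tested (21.3% higher and 21.5% lower). With BBR, 51 were tested and 23 changed, 8 higher and 15 lower, against a background of 38.9% of 12416 (20.1% higher and 18.8% lower). The share of members called was 46.9% and 45.1%, so near the background that it says nothing of these genes as a whole. Past a 2-fold change as well, 3 of 49 members were higher and 5 lower without BBR, beside 216 and 401 of 12418 features (1.74% and 3.23%). With BBR these were 3 and 5 of 51 members, beside 241 and 309 of 12416 features (1.94% and 2.49%). The libraries of the compared groups did not overlap for 26 of 49 members without BBR and 29 of 51 with it, beside 52.2% and 49.6% of all features. The median log2 change of members was -0.12 without BBR and -0.24 with it, beside -0.01 for all features in each. Upper quartile scaling turned the balance of calls over all features from 49.8% to 39.2% higher without BBR and from 51.7% to 40.8% with it, while members stood at 10 higher and 14 lower, and at 8 and 15. Of 48 members tested both times, 7 were higher in both (Col4a1, Col4a2, Itga1, Itgal, Itgam, Itgb3, Itgb6), 9 lower in both (among them Col12a1, Col27a1, Col4a5, Lamb1, Lamb3, Itga6, Itga7 and Itgb5), and Itga2 was higher without BBR and lower with it.

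**Figure D1:**
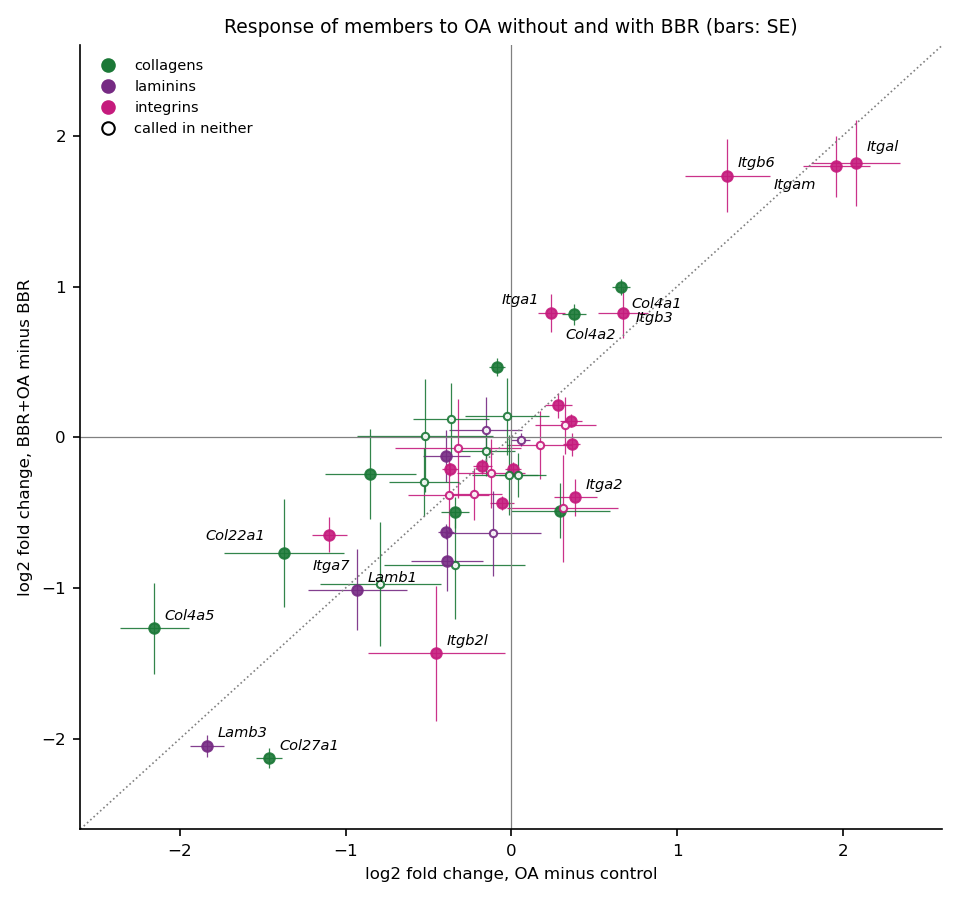
Each point is 1 of the 48 members tested in both comparisons, with the log2 fold change of OA against control on the x axis and of BBR+OA against BBR on the y axis, bars for 1 SE, colour for the family, open symbols for members called in neither, and a dotted line of equal change. Lamb3 and Col27a1 lie at the lower left and Itgam, Itgal and Itgb6 at the upper right, while Itga2 lies to the right of 0 and below it.

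The collagens did not move as a block with OA: the main basement membrane chains Col4a1 and Col4a2 rose, while Col4a5, Col12a1 and Col27a1 fell. Of 19 collagens tested without BBR, 2 rose and 5 fell, and of 21 tested with BBR, 3 rose and 4 fell. These are shares called of 36.8% and 33.3%, beside 42.8% and 38.9% of all features. Col4a1, the commonest chain of collagen IV, was at 93.2, 91.5 and 86.1 CPM in the control libraries, 148, 137 and 141 in OA, 78.8, 66.7 and 72.9 in BBR and 148, 148 and 142 in BBR+OA. The OA and BBR+OA libraries were all above the control and BBR libraries. Col4a1 rose by 0.66 log2 units (SE 0.052, adjusted p = 2.16e-07) without BBR and by 0.997 with it (adjusted p = 7.51e-09). Its partner in the collagen IV trimer, Col4a2, was at 66.3, 64.9 and 57.5 CPM in the control libraries, 89.8, 80.2 and 73.8 in OA, 56.3, 48.5 and 51.8 in BBR and 102, 86.6 and 87.6 in BBR+OA. The order of the groups was that of Col4a1, again with no overlap between libraries with and without OA. Col4a2 rose by 0.38 log2 units (SE 0.072, adjusted p = 0.00076) without BBR and by 0.82 with it (adjusted p = 5.2e-07).

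Col4a5, a collagen IV chain of the X chromosome that assembles with other partners, went the other way at a far lower level. It was at 5.32, 5.11 and 6.69 CPM in the control libraries, 1.24, 1.62 and 0.970 in OA, 3.96, 3.03 and 5.11 in BBR and 1.87, 0.792 and 2.44 in BBR+OA. All OA libraries were below all control libraries and all BBR+OA libraries below all BBR libraries. Col4a5 fell by 2.15 log2 units (SE 0.21, adjusted p = 1.66e-06) without BBR and by 1.27 with it (adjusted p = 0.00391). Its head-to-head neighbour Col4a6 had at most 3 counts in any library, and it and the collagen IV chains Col4a3 and Col4a4, with at most 5 counts, were not tested.

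Col27a1, a chain of a fibrillar collagen known from cartilage, showed the largest fall with OA of any collagen in the presence of BBR. It was at 44.6, 45.6 and 39.4 CPM in the control libraries, 14.4, 16.8 and 15.6 in OA, 59.0, 61.0 and 57.8 in BBR and 13.2, 15.003 and 12.4 in BBR+OA. The 6 libraries with OA lay between 12.4 and 16.8 CPM and the 6 without it at 39.4 CPM or above. Col27a1 fell by 1.46 log2 units (SE 0.08, adjusted p = 8e-09) without BBR and by 2.13 with it (adjusted p = 6.73e-11). Col12a1, which lies along the surface of collagen fibrils, was at 77.0, 97.4 and 91.9 CPM in the control libraries, 64.9, 78.8 and 66.0 in OA, 107, 112 and 131 in BBR and 65.7, 92.6 and 90.7 in BBR+OA. It fell by 0.34 log2 units (SE 0.084, adjusted p = 0.00501) without BBR, where 1 OA library lay within the control range, and by 0.50 with it (adjusted p = 0.00161). Col22a1, a collagen of tissue junctions, was at 1.15, 1.38 and 1.14 CPM in control and 0.679, 0.216 and 0.511 in OA. It fell by 1.37 log2 units (SE 0.36, adjusted p = 0.00674) without BBR. With BBR it was not called, at a log2 difference of -0.77 (adjusted p = 0.11). Col1a1, the main chain of scar collagen, was at 1.505, 1.86 and 2.44 CPM in control and 0.792, 1.30 and 1.12 in OA. Without BBR it fell by 0.85 log2 units (SE 0.28, adjusted p = 0.0224), a call lost without control replicate 3 or OA replicate 1 (adjusted p from 0.0875 to 0.123). With BBR, Col1a1 was not called, at a log2 difference of -0.24 (adjusted p = 0.555). The other scar chains Col1a2, Col3a1, Col5a1 and Col5a2, at control means between 1.54 and 3.75 CPM, passed the test in neither comparison. Col14a1, which binds fibril surfaces, stood at a log2 difference of -0.52 (SE 0.21, adjusted p = 0.0573) for OA without BBR. Of 15 stellate cell and fibroblast markers, 6 were tested without BBR and 1 was higher, none lower (16.7% called, beside 42.8% of all features). With BBR 0 of 6 changed by edgeR (0 also at an unadjusted p under 0.05), and the part of those cells in the result was not tested.

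Col18a1, whose released end is endostatin and which is the most abundant collagen here, moved with OA in the presence of BBR. It was at 184, 178 and 178 CPM in the control libraries, 172, 163 and 172 in OA, 123, 113 and 135 in BBR and 169.9, 163 and 180.1 in BBR+OA. BBR libraries were the lowest and the other 3 groups stood above 160 CPM. With BBR it rose by 0.46 log2 units (SE 0.059, adjusted p = 2.63e-05), and without BBR OA gave a log2 difference of -0.08 (SE 0.047, adjusted p = 0.17). Col11a2, a minor fibrillar chain, fell with OA in the presence of BBR by 0.49 (adjusted p = 0.0475), a call lost without BBR replicate 1, 2 or 3 or BBR+OA replicate 1 or 2 (adjusted p from 0.0515 to 0.16).

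**Figure D2:**
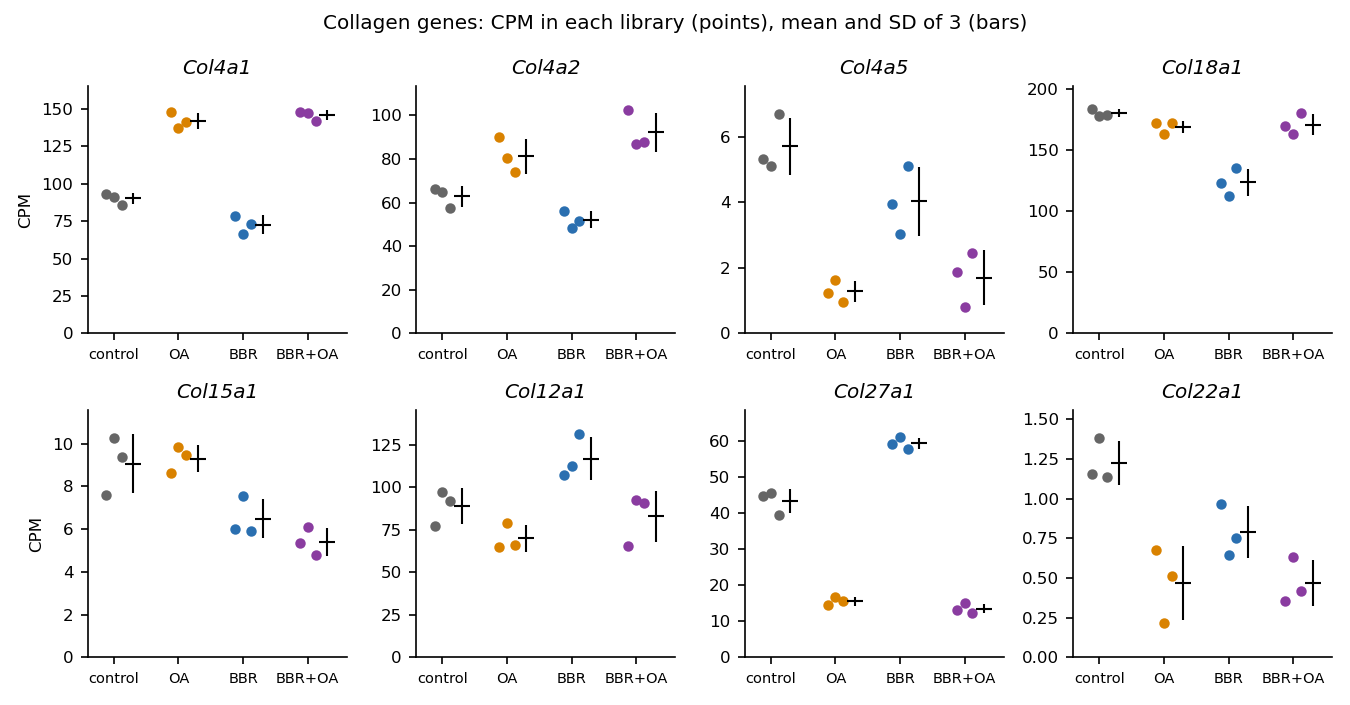
CPM of 8 collagen genes in each of the 12 libraries (points, 3 per group on the x axis), with the mean and SD of each group beside them and every y axis starting at 0. Col4a1 and Col4a2 are high in both groups with OA, Col27a1 is low in both, and Col18a1 is low in BBR alone.

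Promoter stretches are shown for Col4a1 and Col4a2, because these genes start back to back and rose together, and for Col4a5, Col27a1 and Lamb3, because they fell furthest with OA without BBR. Sequences are from RefSeq windows on GRCm38.p6, given 5′ to 3′ in the direction of the gene, with any CCAAT box (CCAAT) or GC box (GGGCGG) on either strand in capitals. In GENCODE M21, Col4a1 (chr8:11198423-11312826, minus strand) and Col4a2 (chr8:11312805-11449287, plus strand) start 21 bases apart and their first exons share 22 bases, and each has a CCAAT box within the window, 145 bases before the start for Col4a1 and 32 bases before it for Col4a2. Only 30 bases around each box are given, since much of each window overlaps annotated exons. For Col4a5 (chrX:141475385-141689234, plus strand), whose start is 1309 bases from that of Col4a6 on the opposite strand, for Col27a1 (chr4:63214004-63334991, plus strand) and for Lamb3 (chr1:193207699-193343878, plus strand, the first of its pair of windows), a part of the 250 bases before the RefSeq start is given. It is the longest run there without annotated untranslated or coding bases. The RefSeq starts are 141475419 for Col4a5, 63215412 for Col27a1 and 193301994 for Lamb3. The stretches of Col27a1 and Lamb3 therefore lie inside the GENCODE gene spans, after the GENCODE starts.
Col4a1, chr8:11312954-11312983, minus strand: tgcttgcccgggATTGGcgagccaaggggc
Col4a2, chr8:11312761-11312790, plus strand: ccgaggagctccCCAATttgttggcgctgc
Col4a5, chrX:141475169-141475384, plus strand: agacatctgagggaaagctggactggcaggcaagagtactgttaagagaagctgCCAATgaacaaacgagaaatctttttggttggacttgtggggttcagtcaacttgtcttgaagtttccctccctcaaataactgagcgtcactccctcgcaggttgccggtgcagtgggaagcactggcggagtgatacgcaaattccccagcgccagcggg
Col27a1, chr4:63215162-63215411, plus strand: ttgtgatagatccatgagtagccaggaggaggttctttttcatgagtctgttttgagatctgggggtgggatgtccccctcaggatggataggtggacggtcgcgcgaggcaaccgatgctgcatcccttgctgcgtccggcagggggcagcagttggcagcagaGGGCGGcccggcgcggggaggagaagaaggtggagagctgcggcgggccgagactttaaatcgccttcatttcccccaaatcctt
Lamb3, chr1:193301744-193301992, plus strand: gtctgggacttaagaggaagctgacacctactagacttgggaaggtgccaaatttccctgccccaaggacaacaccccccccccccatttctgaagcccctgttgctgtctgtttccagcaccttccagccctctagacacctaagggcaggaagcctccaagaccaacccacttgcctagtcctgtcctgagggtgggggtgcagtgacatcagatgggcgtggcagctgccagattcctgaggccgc

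Within the printed stretches, Col4a5 holds a CCAAT box, Col27a1 a GC box and Lamb3 neither. The stretches are only parts of the windows. The full windows of Col4a1, Col4a2 and Col4a5 also hold a GC box, outside the bases printed. Windows from 250 bases before to 50 after the start were at hand for 62 members (68 windows), and 5 motifs were searched on both strands. The GC box was in 52.9% of member windows and 35.7% of all 32851 windows, the CCAAT box in 26.5% and 37.4%, the TATA box (TATAAA) in 7.35% and 13.6%, and the AP-1 site (TGACTCA) in 4.41% and 5.2%. The DR1 element (a pair of AGGTCA half-sites with a spacer of 1 base), known to be bound by PPAR receptors, was in 0 member windows and in 0.0396% of all. Such matches describe letters in a window and are no evidence of binding.

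All laminins called with OA were lower. Of 8 tested, 4 fell in each comparison (50%), and 0 rose by edgeR or by DESeq2. Of all features, 42.8% were called without BBR (21.5% lower) and 38.9% with it (18.8% lower). A family of 8 genes is small to set against these shares. At an unadjusted p under 0.05, 4 were lower without BBR and 5 with it, the fifth being Lamb2, a beta chain of vessel, kidney and muscle basement membranes, and 0 were higher. Lamb3, a beta chain of epithelial laminin, was at 43.1, 37.5 and 34.7 CPM in the control libraries, 11.9, 9.31 and 10.9 in OA, 38.5, 35.7 and 36.7 in BBR and 9.31, 8.56 and 9.05 in BBR+OA. Libraries with OA lay between 8.56 and 11.9 CPM and those without at 34.7 CPM or above. Lamb3 fell by 1.83 log2 units (SE 0.1, adjusted p = 8.92e-09) without BBR and by 2.05 with it (adjusted p = 1.46e-10). Lama3, an alpha chain of epithelial laminin, was at 4.06, 6.63 and 6.32 CPM in the control libraries, 3.06, 5.79 and 4.14 in OA, 5.80, 8.82 and 5.22 in BBR and 3.09, 4.23 and 3.81 in BBR+OA. The BBR+OA libraries were below every BBR library. It fell by 0.82 log2 units (SE 0.2, adjusted p = 0.00493) with BBR, and without BBR the OA libraries overlapped the control libraries, with a log2 difference of -0.39 (SE 0.22, adjusted p = 0.164). In FPKM, Lamb3 went from 9.58 ± 1.2 in control to 2.56 ± 0.31 in OA.

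The widely used gamma chain Lamc1 was at 138, 143 and 136 CPM in the control libraries, 143, 155 and 133 in OA, 145, 137 and 146 in BBR and 144, 141 and 139.9 in BBR+OA. The 4 groups overlapped throughout. OA gave a log2 difference of 0.06 (SE 0.056, adjusted p = 0.447) without BBR, and with BBR a log2 difference of -0.01 (SE 0.042, adjusted p = 0.812). Lamb1, the beta chain of the common laminins, was low, at 1.96, 1.24 and 1.56 CPM in control and 0.736, 0.649 and 1.07 in OA, and fell by 0.93 log2 units (SE 0.3, adjusted p = 0.0206), and it fell by 1.01 log2 units (SE 0.27, adjusted p = 0.00847) with BBR. The call without BBR was lost without control replicate 1 or OA replicate 1 or 2 (adjusted p from 0.0654 to 0.0892). Lama5, an alpha chain of many basement membranes, was at 4.92, 4.96 and 4.67 CPM in control and 3.34, 3.79 and 3.88 in OA. Without BBR it fell by 0.39 log2 units (SE 0.14, adjusted p = 0.0384), a call lost without control replicate 1, 2 or 3 or OA replicate 1 or 2 (adjusted p from 0.0641 to 0.127). Lama5 was not called with OA in the presence of BBR. Endothelial markers, from cells that also make laminin and collagen IV, summed to 128 to 138 CPM in control and 103 to 122 in OA, and to 132 to 145 in BBR and 119.7 to 123 in BBR+OA. Much of the difference with OA was the gene Flt4. It was at 31.3, 32.6 and 30.9 CPM in control, 14.5, 18.6 and 13.7 in OA, 31.0, 28.5 and 32.0 in BBR and 17.7, 18.8 and 21.1 in BBR+OA. Of 13 endothelial markers tested, 3 were lower and 1 higher without BBR (30.8%), and 5 lower and 3 higher with it (61.5%). The shares of all features called were 42.8% and 38.9%. Of 6 cholangiocyte markers tested, 2 were higher and 1 lower without BBR and 2 lower with it (50% and 33.3%). Of 12 hepatocyte markers 6 were higher and 2 lower, and 6 higher and 1 lower (66.7% and 58.3%). The part of these cells in these results was not tested.

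**Figure D3:**
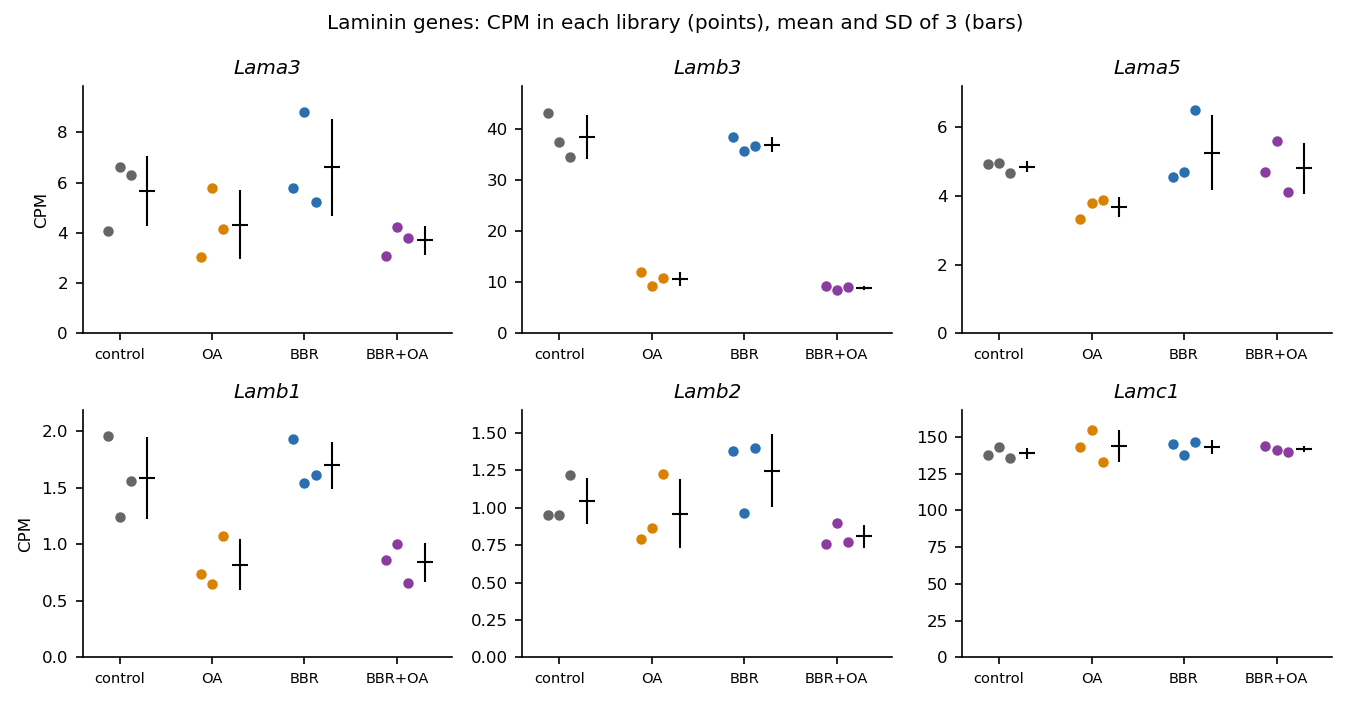
CPM of 6 laminin genes in each of the 12 libraries (points), with the mean and SD of each group of 3 and y axes from 0. Lamb3 falls in both groups with OA, and Lamc1 sits at one level throughout.

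Integrins moved in both directions with OA. Without BBR, 9 of 22 integrin-named genes rose and 3 fell, and with BBR 5 rose and 7 fell. That is 40.9% higher and 13.6% lower without BBR, beside 21.3% and 21.5% of all features. With BBR it is 22.7% and 31.8%, beside 20.1% and 18.8%. Of the 9 that rose without BBR, Itgb1bp1 codes for no integrin subunit. The calls of Itga1, Itga2 and Itgb1bp1 without BBR were each lost when some single library was left out. A family of 22 genes is small to set against these shares. By ligand, the laminin-binding alpha chains were lower: Itga6 and Itga7 fell without BBR, and Itga3, Itga6 and Itga7 with it. Itga7, known best from muscle, was at 17.9, 15.7 and 18.02 CPM in the control libraries, 7.41, 7.31 and 9.19 in OA, 12.1, 14.0 and 10.8 in BBR and 8.20, 7.29 and 7.92 in BBR+OA. The libraries with OA lay between 7.29 and 9.19 CPM, below every library without it. Itga7 fell by 1.10 log2 units (SE 0.11, adjusted p = 1.59e-06) without BBR and by 0.65 with it (adjusted p = 0.000441). Itga6 fell by 0.17 log2 units (SE 0.059, adjusted p = 0.0279) without BBR, from 62.6, 60.5 and 56.1 to 53.1, 54.9 and 49.99 CPM, and by 0.19 with BBR (adjusted p = 0.00619), and the former call was lost without control replicate 1 or 2 or OA replicate 1 or 3 (adjusted p from 0.055 to 0.117). Itga3 was at 257, 248 and 213 CPM in the control libraries, 234, 247 and 206 in OA, 278, 288 and 261 in BBR and 209.7, 209 and 192 in BBR+OA. Its BBR+OA libraries were below every BBR library, while OA and control libraries overlapped. Itga3 fell by 0.44 log2 units (SE 0.049, adjusted p = 8.05e-06) with BBR, and OA alone gave a log2 difference of -0.06 (SE 0.074, adjusted p = 0.575).

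Collagen-binding Itga1 was at 17.5, 15.3 and 18.1 CPM in the control libraries, 20.6, 19.2 and 20.3 in OA, 12.6, 10.04 and 13.4 in BBR and 17.96, 21.3 and 25.6 in BBR+OA. It rose by 0.24 log2 units (SE 0.082, adjusted p = 0.0272) without BBR, a call lost without control replicate 2 or OA replicate 1 or 3 (adjusted p from 0.051 to 0.131) and with upper quartile scaling (adjusted p = 0.0696), and by 0.83 with BBR (adjusted p = 0.000131). The rise with BBR started from the BBR libraries, which were the lowest. Itga2, the other collagen-binding chain above 10 CPM, whose gene lies 169864 bases from Itga1 on chromosome 13, was at 30.5, 30.0 and 23.0 CPM in the control libraries, 37.5, 42.9 and 28.0 in OA, 32.4, 30.6 and 24.6 in BBR and 21.6, 26.9 and 17.99 in BBR+OA. Groups overlapped in both comparisons, and Itga2 rose by 0.39 log2 units (SE 0.13, adjusted p = 0.0266) without BBR and fell by 0.40 log2 units (SE 0.12, adjusted p = 0.0205) with BBR. These calls were lost without control replicate 3 or OA replicate 1 or 2 (adjusted p from 0.0625 to 0.168), and without BBR replicate 1 or 2 or BBR+OA replicate 1 or 3 (adjusted p from 0.053 to 0.0971), respectively. By DESeq2 neither change of Itga2 was called (adjusted p = 0.157 without BBR and 0.125 with it).

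The fibronectin and RGD-binding chains showed partner-by-partner differences. Itgav was at 207, 198 and 183 CPM in the control libraries, 267, 262 and 222 in OA, 236, 218 and 231 in BBR and 252, 250.2 and 239 in BBR+OA. It rose by 0.36 log2 units (SE 0.068, adjusted p = 0.000634) without BBR, all OA libraries being above all control libraries, and with BBR OA gave a log2 difference of 0.11 (SE 0.043, adjusted p = 0.057). Itgb5, the most abundant Itgav partner other than Itgb1, was at 135, 132 and 135 CPM in the control libraries, 103, 99.5 and 108 in OA, 107, 115 and 114 in BBR and 95.2, 97.7 and 96.7 in BBR+OA. It fell by 0.37 log2 units (SE 0.049, adjusted p = 3.56e-05) without BBR and by 0.21 with it (adjusted p = 0.00138). Itgb6, an Itgav partner of epithelia that activates latent TGF-beta, was at 1.003, 1.10 and 0.632 CPM in the control libraries, 2.09, 2.22 and 2.35 in OA, 0.920, 1.35 and 1.29 in BBR and 4.60, 2.96 and 4.17 in BBR+OA. The libraries with OA were all above those without. Itgb6 rose by 1.30 log2 units (SE 0.26, adjusted p = 0.000973) without BBR and by 1.73 with it (adjusted p = 5.91e-05). Itgb3, the beta chain of the vitronectin receptor, was at 3.36, 3.29 and 3.62 CPM in the control libraries, 5.997, 5.68 and 4.70 in OA, 2.94, 3.35 and 2.69 in BBR and 5.77, 4.60 and 5.48 in BBR+OA. It rose by 0.67 log2 units (SE 0.15, adjusted p = 0.00225) without BBR and by 0.82 with it (adjusted p = 0.00118), with no overlap. In FPKM Itgb5 stayed far above both, at 33.1 ± 1.1 in OA beside 0.5 ± 0.07 for Itgb6 and 0.937 ± 0.12 for Itgb3. Itga5, the fibronectin receptor chain, was at 65.5, 72.3 and 67.3 CPM in the control libraries, 84.5, 90.5 and 87.7 in OA, 64.7, 78.5 and 83.5 in BBR and 68.1, 75.5 and 75.7 in BBR+OA. It rose by 0.36 log2 units (SE 0.054, adjusted p = 8.28e-05) without BBR, where the groups did not overlap, and with BBR OA gave a log2 difference of -0.05 (SE 0.077, adjusted p = 0.678). Itgb1 was at 872, 901 and 895 CPM in the control libraries, 851, 919 and 904 in OA, 909, 1001 and 986 in BBR and 804, 849.6 and 851 in BBR+OA. OA alone gave a log2 difference of 0.01 (SE 0.05, adjusted p = 0.88), and with BBR it fell by 0.21 log2 units (SE 0.047, adjusted p = 0.00264). Itgb8, another beta partner of Itgav, had counts in 1 library only and was not tested. Itga9, a tenascin and osteopontin receptor chain, stood at a log2 difference of 0.33 (SE 0.18, adjusted p = 0.168) for OA without BBR. Without BBR, Itgb1bp1, which binds the tail of Itgb1, rose by 0.28 log2 units (SE 0.081, adjusted p = 0.0113), a call lost without control replicate 2 (adjusted p = 0.0541). With BBR, Itgb1bp1 was not called, at a log2 difference of 0.21 (adjusted p = 0.0532). Of the exonic bases of Itgb1bp1, 11.4% overlap the opposite-strand gene Asap2, and without strand the reads of both cannot be told apart.

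The steepest rises of any member with OA, in both comparisons, were in leukocyte integrins. Itgam, the alpha chain of the complement receptor of macrophages and neutrophils, was at 1.30, 1.19 and 1.05 CPM in the control libraries, 4.81, 5.09 and 3.88 in OA, 1.61, 1.16 and 1.45 in BBR and 5.51, 4.12 and 5.30 in BBR+OA. The 6 libraries with OA stood at 3.88 CPM or above and the 6 without at 1.61 or below. Itgam rose by 1.96 log2 units (SE 0.2, adjusted p = 2.76e-06) without BBR and by 1.80 with it (adjusted p = 8.43e-06). Itgal, the alpha chain of LFA-1, was at 0.502, 0.668 and 0.505 CPM in the control libraries, 2.09, 2.27 and 2.71 in OA, 0.828, 0.579 and 0.430 in BBR and 1.97, 2.43 and 2.26 in BBR+OA. It rose by 2.08 log2 units (SE 0.27, adjusted p = 2.55e-05) without BBR and by 1.82 with it (adjusted p = 0.000162), again with no overlap. Their shared beta partner Itgb2 was at 3.46, 2.62 and 2.23 CPM in the control libraries, 2.77, 3.41 and 3.06 in OA, 3.77, 3.67 and 2.47 in BBR and 3.54, 3.75 and 2.20 in BBR+OA. All 4 groups overlapped, with a log2 difference of 0.17 (SE 0.2, adjusted p = 0.519) for OA without BBR and a log2 difference of -0.05 (SE 0.23, adjusted p = 0.879) with it. Itgb2l, a close relative of Itgb2, fell by 1.43 log2 units (SE 0.45, adjusted p = 0.0207) with BBR, where libraries overlapped, a call lost without BBR replicate 2 or 3 or BBR+OA replicate 1 or 2 (adjusted p from 0.0539 to 0.0975). The exons of Itgam share 3450 of 5024 bases with its second identifier, so how reads were split between them is uncertain, though the second one had at most 0.129 CPM in any library.

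Markers of the cells that usually carry these chains were measured beside them. Of 13 Kupffer cell and macrophage markers, 12 were tested without BBR, and 3 were higher and 7 lower. Marco rose by 2.51, Lyz2 by 1.67 and Adgre1 by 1.41 log2 units, while Folr2 fell by 1.80, Clec4f fell by 1.28, Vsig4 fell by 1.17 and Cd5l fell by 1.05. With BBR, 3 were higher and 4 lower. The shares called were 83.3% without BBR and 58.3% with it, beside 42.8% and 38.9% of all features. The list summed to 109.7 to 126 CPM in control, 118 to 129 in OA, 148 to 191 in BBR and 124 to 130.1 in BBR+OA. Of 8 leukocyte markers, Cd3e, Ms4a1 and Nkg7 had no count in any library, and Ptprc, the pan-leukocyte antigen, was at 0.953, 1.38 and 1.31 CPM in control and 1.75, 1.19 and 1.48 in OA, with a log2 difference of 0.28 (SE 0.26, adjusted p = 0.423). The list summed to 1.003 to 1.39 CPM in control, 1.19 to 1.81 in OA, 1.20 to 1.67 in BBR and 1.67 to 1.97 in BBR+OA. The part of these cells in the rise of Itgam and Itgal was not tested.

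**Figure D4:**
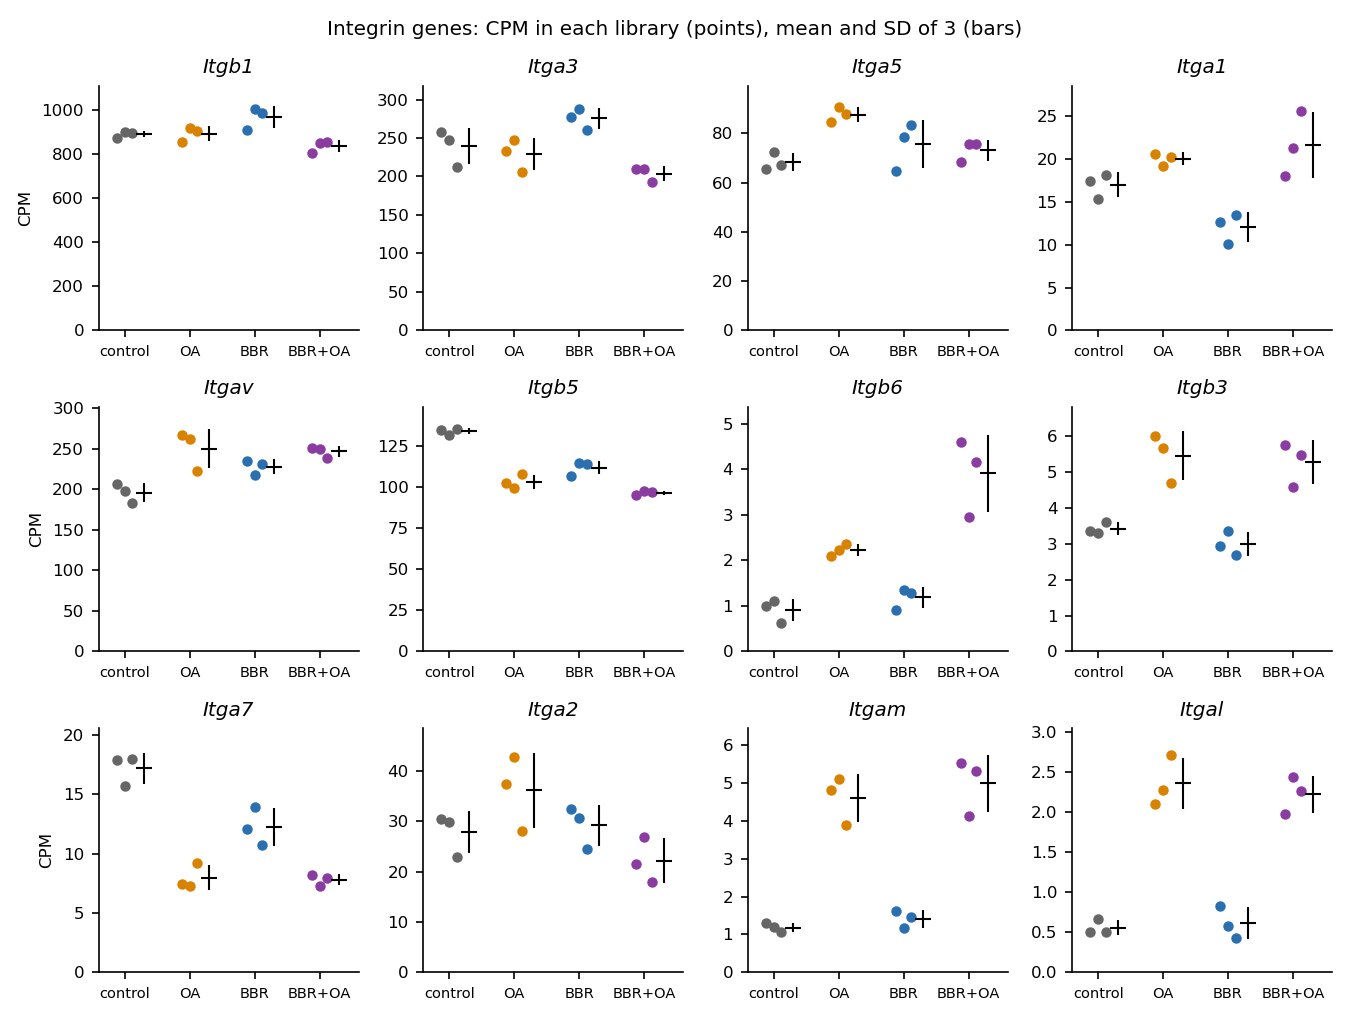
CPM of 12 integrin genes in each of the 12 libraries (points), with the mean and SD of each group of 3 and y axes from 0. Itgam and Itgal stand high in both groups with OA, Itga7 low, and Itga1 is lowest in BBR alone.

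The next question was what BBR did without OA (BBR against control). Of 52 members tested, 13 changed (25%), 6 higher and 7 lower, against a background of 27.7% of 12555 features (13.2% higher and 14.5% lower). Past a 2-fold change 1 was higher, Col11a2, and 0 lower by edgeR, beside 1.05% and 1.15% of all features. Groups did not overlap for 17 of the 52 members and 41.5% of all features. The median log2 change of members was 0.12, beside -9e-04 for all features. No laminin passed (0 of 8 by edgeR and by DESeq2, and 1 at an unadjusted p under 0.05). By edgeR, 7 of 22 collagens (31.8%) and 6 of 22 integrin-named genes (27.3%) passed, shares near the 27.7% of all features. With only 8 laminins, these counts set no family apart. BBR lowered the basement membrane collagens: Col18a1 fell by 0.53 log2 units (SE 0.056, adjusted p = 3.13e-06), Col4a1 fell by 0.30 log2 units (SE 0.059, adjusted p = 0.00114) and Col4a2 fell by 0.26 log2 units (SE 0.065, adjusted p = 0.00771), each with no overlap. Col15a1, the other collagen of the Col18a1 type, was at 7.58, 10.3 and 9.35 CPM in the control libraries, 8.60, 9.85 and 9.45 in OA, 5.98, 7.53 and 5.92 in BBR and 5.36, 6.08 and 4.76 in BBR+OA. It fell by 0.49 log2 units (SE 0.14, adjusted p = 0.0127), a call lost without control replicate 2 or BBR replicate 3 (adjusted p from 0.0557 to 0.0699). BBR raised Col27a1, which rose by 0.46 log2 units (SE 0.06, adjusted p = 2.52e-05), Col12a1, which rose by 0.40 log2 units (SE 0.079, adjusted p = 0.00113), and Col11a2, which rose by 1.02 log2 units (SE 0.21, adjusted p = 0.00156) from 1.45, 1.57 and 2.32 to 3.31, 3.80 and 3.87 CPM.

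Among integrins, BBR lowered Itga1, Itga7 and Itgb5 and raised Itga3, Itgav and Itgb2l. Itga1 fell by 0.48 log2 units (SE 0.1, adjusted p = 0.00237), Itga7 fell by 0.49 log2 units (SE 0.098, adjusted p = 0.00139) and Itgb5 fell by 0.25 log2 units (SE 0.046, adjusted p = 0.000555), and none of these overlapped between groups. Itgav rose by 0.23 log2 units (SE 0.052, adjusted p = 0.00356). Itga3 rose by 0.21 log2 units (SE 0.063, adjusted p = 0.0194), a call lost without control replicate 3 or BBR replicate 2 (adjusted p from 0.0899 to 0.0918). Itgb2l, at 0.602, 0.573 and 1.22 CPM in control and 1.06, 1.74 and 2.15 in BBR, rose by 0.999 log2 units (SE 0.35, adjusted p = 0.0409), with overlap, a call lost without control replicate 1 or 2 or BBR replicate 2 or 3 (adjusted p from 0.107 to 0.198). Lamb3, which fell so far with OA, stood at a log2 difference of -0.04 (SE 0.074, adjusted p = 0.713). Markers of other cells were counted beside the 27.7% of all features called with BBR. Of 7 stellate cell and fibroblast markers tested, 2 fell (28.6%), Acta2 by 0.97 and Tagln by 0.77 log2 units, and of 14 endothelial markers 3 rose and 0 fell (21.4%). Of 12 Kupffer cell markers tested, 1 rose and 2 fell (25%). These shares are near or below that of all features. All 6 cholangiocyte (bile duct cell) markers tested, of 9, were called, 4 higher and 2 lower, and the list summed to 639 to 722 CPM in control, 742 to 931 in OA, 838 to 1127 in BBR and 662 to 813 in BBR+OA. Most of that sum was the tight junction gene Cldn4. Of 12 hepatocyte markers, 2 rose and 7 fell (75%). Kupffer markers summed higher in BBR than in control libraries, most of it Cd68, a lysosomal protein that rose by 0.71 log2 units (SE 0.11, adjusted p = 9.04e-05) to a mean of 131 CPM. The part of these cells in the results was not tested.

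With OA present, BBR moved few members in the main fit, which left out the replicate number. With that number as a block, 3 members were higher and 4 lower. In the main fit, of 47 tested (BBR+OA against OA), 4 changed (8.51%), 1 higher and 3 lower, against a background of 4.59% of 12278 features (1.95% higher and 2.63% lower). Groups did not overlap for 8 of the 47 members and 23.9% of all features. None of the 4 reached a 2-fold change, which 0.122% of all features did upward and 0.13% downward. Col15a1 fell by 0.78 log2 units (SE 0.12, adjusted p = 0.00224), with no overlap, and was the only member of the 47 called in the same direction by BBR without OA. Itga2 fell by 0.70 log2 units (SE 0.14, adjusted p = 0.0128), a call lost without OA replicate 2 or BBR+OA replicate 3 (adjusted p = 0.0827). Itga5 fell by 0.26 log2 units (SE 0.055, adjusted p = 0.0139), a call lost without OA replicate 2 or BBR+OA replicate 1 (adjusted p from 0.0639 to 0.0772). Itgb6 rose by 0.81 log2 units (SE 0.2, adjusted p = 0.0339), a call lost without OA replicate 1, 2 or 3 or BBR+OA replicate 1 or 3 (adjusted p from 0.0531 to 0.135). Col4a1 stood at a log2 difference of 0.03 (SE 0.048, adjusted p = 0.757), Col18a1 at a log2 difference of 0.01 (SE 0.05, adjusted p = 0.925) and Itga1 at a log2 difference of 0.10 (SE 0.1, adjusted p = 0.66).

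**Figure D5:**
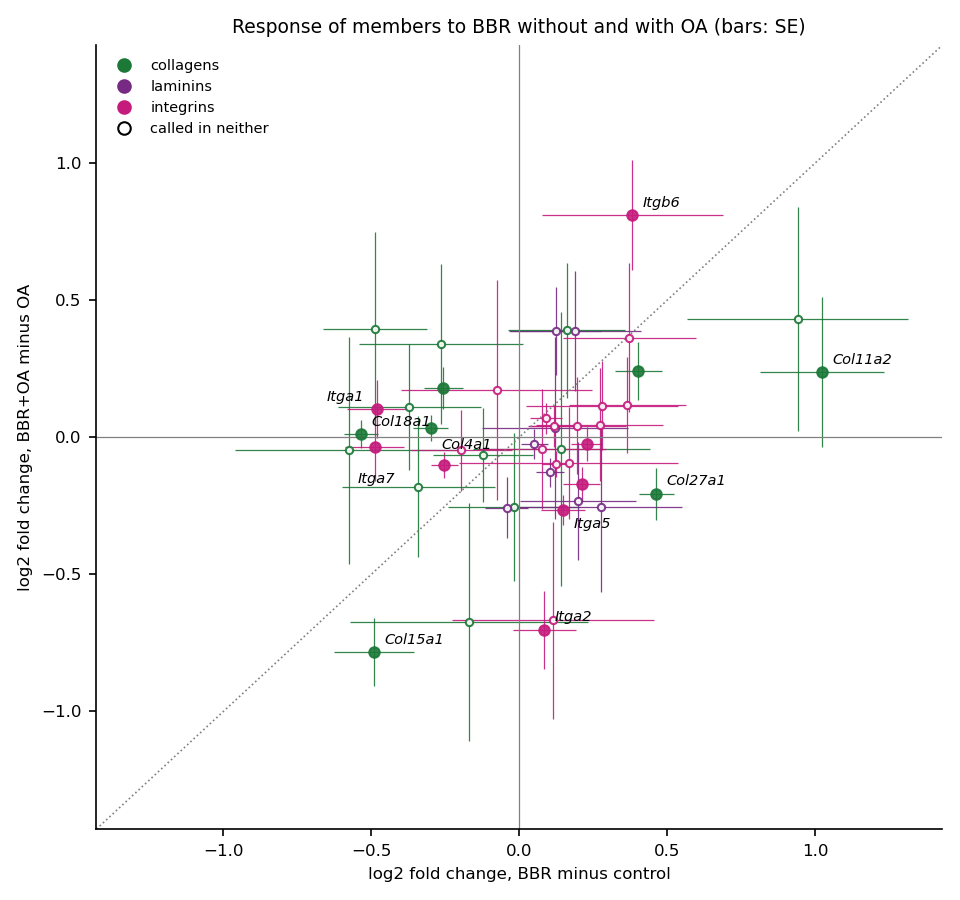
Each point is 1 of the 47 members tested in both comparisons, with the log2 fold change of BBR against control on the x axis and of BBR+OA against OA on the y axis, bars for 1 SE, colour for the family, open symbols for members called in neither, and a dotted line of equal change. Col15a1 lies low on both axes, while Col18a1, Col4a1 and Itga1 lie left of 0 and near 0 on the y axis.

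Whether the effect of BBR differed with and without OA was tested by the interaction over all 12 libraries. Of 52 members, 10 passed (19.2%), 4 with a positive term (a BBR effect more positive with OA) and 6 with a negative one, against a background of 12.2% of 12742 features (6.87% positive and 5.31% negative). None of the 10 terms reached 1 log2 unit, which 0.722% of all features did upward and 0.542% downward. The positive terms were those of 3 basement membrane collagens and a collagen-binding integrin chain: 0.56 (SE 0.079, adjusted p = 0.000151) for Col18a1, 0.45 (SE 0.11, adjusted p = 0.0126) for Col4a2, 0.34 (SE 0.077, adjusted p = 0.00633) for Col4a1 and 0.59 (SE 0.16, adjusted p = 0.022) for the collagen-binding chain Itga1, all in log2 units. All 4 were lowered by BBR alone and not called for BBR with OA present. The negative terms included -0.66 (SE 0.11, adjusted p = 0.000675) for Col27a1, -0.78 (SE 0.21, adjusted p = 0.022) for Itga2, -0.40 (SE 0.1, adjusted p = 0.0154) for Itga5 and -0.37 (SE 0.099, adjusted p = 0.0193) for Itga3, and smaller for Itgb1. For Lamb3 the term was -0.20 (SE 0.14, adjusted p = 0.381) and was not called. The call of Itga1 was lost without control replicate 3 or OA replicate 2 or BBR replicate 2 or BBR+OA replicate 3 (adjusted p from 0.0576 to 0.0784), that of Itga2 without control replicate 3 or OA replicate 2 or BBR replicate 1 or 2 or BBR+OA replicate 3 (adjusted p from 0.0557 to 0.0693), and that of Itga3 without OA replicate 2 or BBR replicate 2 (adjusted p from 0.0516 to 0.0587).

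The machinery that makes, cuts and cross-links collagen, and the proteins that bind these families, were described from lists of genes grouped by function. These lists were chosen with earlier results of these data known, so a share above that of all features is no evidence about a list. For description only, the shares of all features called were 42.8% with OA alone and 38.9% with OA in the presence of BBR. They were 27.7% with BBR alone and 4.59% with BBR in the presence of OA. With BBR in the presence of OA these lists held few calls, at most 2 in any of the 6, and the other comparisons are given list by list. For the enzymes and chaperones of collagen synthesis, 14 of 19 were tested with BBR alone and 5 rose and 1 fell, 5 rose and 3 fell with OA alone, and 2 rose and 4 fell of 13 with OA in the presence of BBR. These are shares called of 42.9%, 57.1% and 46.2%. Plod2, a lysyl hydroxylase that sets the type of cross-link, was at 16.0, 20.3 and 17.1 CPM in the control libraries, 23.7, 27.0 and 24.4 in OA, 31.0, 40.8 and 34.4 in BBR and 19.5, 27.5 and 23.8 in BBR+OA. Its mean was lowest in control and highest in BBR. Plod2 rose by 0.99 log2 units (SE 0.099, adjusted p = 2e-06) with BBR, rose by 0.50 log2 units (SE 0.09, adjusted p = 0.000454) with OA, and fell by 0.58 log2 units (SE 0.11, adjusted p = 0.000998) with OA in the presence of BBR. P4ha2, a prolyl hydroxylase needed for a stable helix, rose by 0.85 log2 units (SE 0.069, adjusted p = 2.56e-07) with BBR and fell by 0.42 log2 units (SE 0.072, adjusted p = 0.000356) with OA in its presence. Colgalt1, which adds galactose to collagen, fell by 0.27 log2 units (SE 0.049, adjusted p = 0.000695) with BBR and rose by 0.43 log2 units (SE 0.051, adjusted p = 1.21e-05) with OA. Serpinh1, the collagen chaperone HSP47, fell by 0.42 log2 units (SE 0.13, adjusted p = 0.0174) with OA, and Crtap, part of the prolyl 3-hydroxylase complex, fell by 0.45 log2 units (SE 0.066, adjusted p = 7.16e-05). Sec23a, a coat protein of export from the endoplasmic reticulum, rose by 0.21 log2 units (SE 0.05, adjusted p = 0.0284) with BBR in the presence of OA.

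Among 13 genes of collagen processing, 7 were tested with OA in each setting, and 2 rose and 3 fell both times, a share called of 71.4%. With BBR alone, 0 of 8 rose by edgeR and 1 fell (12.5% called). Lox, the enzyme that starts collagen and elastin cross-links, was at 1.05, 0.859 and 1.43 CPM in the control libraries, 5.83, 4.06 and 5.16 in OA, 1.61, 0.837 and 1.13 in BBR and 3.84, 4.44 and 4.59 in BBR+OA. The 6 libraries with OA were above the 6 without. Lox rose by 2.15 log2 units (SE 0.22, adjusted p = 3.42e-06) without BBR and by 1.80 with it (adjusted p = 2.36e-05). Its relative Loxl4 rose by 0.85 log2 units (SE 0.064, adjusted p = 1.43e-07), whereas Loxl2, which acts on basement membrane collagen, fell by 0.39 log2 units (SE 0.066, adjusted p = 0.000278) and the proteinase Bmp1 fell by 0.38 log2 units (SE 0.052, adjusted p = 4.08e-05). Pcolce2, an enhancer of Bmp1, fell by 0.97 log2 units (SE 0.2, adjusted p = 0.00151) without BBR and by 0.92 with it (adjusted p = 0.00275).

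Of 19 matrix partners, 16 were tested, and with OA alone 2 rose and 9 fell, with OA in the presence of BBR 2 rose and 5 fell, and with BBR alone 3 fell, which are shares called of 68.8%, 43.8% and 18.8%. Nid1, which links laminin to collagen IV, rose by 0.52 log2 units (SE 0.09, adjusted p = 0.000344), and Thbs1, a large adhesive glycoprotein, rose by 0.51 log2 units (SE 0.11, adjusted p = 0.0014). Spp1 (osteopontin), an RGD ligand of Itgav integrins, was at 607, 680.1 and 552 CPM in the control libraries, 186, 203 and 222 in OA, 362, 338 and 329 in BBR and 143, 183 and 174 in BBR+OA. It fell by 1.58 log2 units (SE 0.077, adjusted p = 2.77e-09) with OA and fell by 0.83 log2 units (SE 0.065, adjusted p = 1.53e-07) with BBR. Fn1 (fibronectin), the ligand of Itga5, was among the most abundant matrix transcripts at a control mean of 3993 CPM, and it fell by 0.61 log2 units (SE 0.078, adjusted p = 2.33e-05) without BBR and by 0.76 with it (adjusted p = 1.68e-07). The proteoglycan Bgn fell by 0.68 log2 units (SE 0.17, adjusted p = 0.00487), and tenascin, Tnc, fell by 1.05 log2 units (SE 0.16, adjusted p = 0.000102) with BBR.

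Of 26 integrin linkers and adhesion proteins, all tested, 8 rose and 4 fell with OA, 9 rose and 5 fell with OA in the presence of BBR, and 2 rose and 10 fell with BBR. The shares called were 46.2%, 53.8% and 46.2%, the first near the background of 42.8%. Ilk, the pseudokinase bound to the tail of Itgb1, rose by 0.32 log2 units (SE 0.046, adjusted p = 8.07e-05) with OA. Fermt2 (kindlin-2), which switches integrins on, rose by 0.40 log2 units (SE 0.052, adjusted p = 2.58e-05) with OA and rose by 0.28 log2 units (SE 0.048, adjusted p = 0.000327) with BBR. Bcar1, a docking protein of adhesions, rose by 0.35 log2 units (SE 0.053, adjusted p = 0.000143) with OA in the presence of BBR, and Tns1, a tensin, fell by 0.33 log2 units (SE 0.054, adjusted p = 0.000282) with BBR and fell by 0.27 log2 units (SE 0.063, adjusted p = 0.0267) with BBR in the presence of OA. Vasp, an actin regulator, fell by 0.23 log2 units (SE 0.044, adjusted p = 0.0079) in that last comparison. Cav1, the caveolar coat protein, fell by 0.96 log2 units (SE 0.2, adjusted p = 0.00167) with OA and fell by 0.72 log2 units (SE 0.2, adjusted p = 0.0128) with BBR, and Tln2, a talin, fell by 0.64 log2 units (SE 0.16, adjusted p = 0.0054) with OA. Fermt1 rose by 0.70 log2 units (SE 0.25, adjusted p = 0.0461) with BBR and fell by 1.19 log2 units (SE 0.27, adjusted p = 0.00274) with OA in its presence.

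Of 15 matrix proteases and their inhibitors, 12 were tested with OA, and 3 rose and 7 fell without BBR, while 2 rose and 5 fell with it. With BBR alone, 3 of 13 rose and 3 fell. The shares called were 83.3%, 58.3% and 46.2%, beside 42.8%, 38.9% and 27.7% of all features. Mmp13, a collagenase, rose by 1.76 log2 units (SE 0.26, adjusted p = 7.7e-05) with OA and fell by 1.43 log2 units (SE 0.21, adjusted p = 0.00131) with BBR in its presence. Mmp9, a gelatinase that digests collagen IV, rose by 1.66 log2 units (SE 0.26, adjusted p = 0.000128), and Plaur, the urokinase receptor, rose by 0.64 log2 units (SE 0.049, adjusted p = 1.9e-07) with OA in the presence of BBR. The membrane-bound Mmp15 fell by 1.12 log2 units (SE 0.082, adjusted p = 1.16e-07) with OA and rose by 0.44 log2 units (SE 0.097, adjusted p = 0.0198) with BBR in its presence, and the inhibitor Timp1 fell by 0.89 log2 units (SE 0.23, adjusted p = 0.00566) with OA. Plau, the urokinase, fell by 0.76 log2 units (SE 0.22, adjusted p = 0.0144) with OA in the presence of BBR, and Mmp19 fell by 0.68 log2 units (SE 0.085, adjusted p = 1.77e-05) with BBR.

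Of 13 genes of TGF-beta signalling and YAP response, which control many matrix genes, 12 were tested with OA and with BBR: 4 rose and 2 fell with OA, and 2 rose and 4 fell with BBR. With OA in the presence of BBR, 3 of 10 rose and 3 fell. The shares called were 50%, 50% and 60%, in the order given. Ankrd1, a YAP target, was at 97.6, 98.6 and 91.7 CPM in the control libraries, 127, 122 and 129 in OA, 76.7, 67.5 and 81.6 in BBR and 155, 151 and 153 in BBR+OA. BBR libraries were lowest and BBR+OA libraries highest, and no groups overlapped. Ankrd1 rose by 0.40 log2 units (SE 0.05, adjusted p = 1.93e-05) with OA and by 1.02 with OA in the presence of BBR (adjusted p = 9.37e-09). Tgfb2, a TGF-beta ligand, fell by 0.84 log2 units (SE 0.15, adjusted p = 0.000395) with BBR and rose by 0.92 log2 units (SE 0.14, adjusted p = 0.000103) with OA in its presence. Tgfb1 fell by 0.48 log2 units (SE 0.13, adjusted p = 0.00813) with OA, Ltbp2, a latent TGF-beta binding protein, fell by 1.80 log2 units (SE 0.38, adjusted p = 0.0016), and Skil, a brake on the pathway, rose by 0.54 log2 units (SE 0.057, adjusted p = 3.66e-06) with OA and rose by 0.50 log2 units (SE 0.047, adjusted p = 1.02e-06) with BBR. Smad7, an inhibitor of TGF-beta signalling, rose by 0.27 log2 units (SE 0.077, adjusted p = 0.0142) with BBR.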

How the data were processed

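Polyadenylated RNA of 12 libraries was sequenced on an Illumina platform. Per the labels, the authors used Trizol total RNA, oligo(dT) enrichment, fragmentation and random primers, with no strand-specific step given. The authors deposited, for each library, expected counts per gene and FPKM; mm10 is the build in the submitters' processing notes, and the aligner and counter are not given in the sources used here. Expected counts (2862 of 22471 features had a fractional one in at least 1 library) were rounded.

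Features were filtered with filterByExpr (minimum count 10), scaled by TMM and tested with edgeR 4.0.16 (R 4.3.3, limma 3.58.1) by the quasi-likelihood F test, in each of 4 pairwise comparisons on its own 6 libraries and for the interaction of BBR with OA on all 12. P-values were adjusted by Benjamini-Hochberg over all features tested, and a call is an adjusted p under 0.05. SE is that of the log2 fold change. The steps were tested on simulated data. Alternatives were DESeq2 1.42.0, RLE and upper quartile scaling, no filter, a replicate block, all 12 libraries in one fit, a required 2-fold change and leaving out each library. Gene positions are from GENCODE M21 (all 87 member identifiers matched), which shares the build, and promoter sequences from RefSeq windows on GRCm38.p6 (250 bases before to 50 after each start), at hand for 62 members.

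Members and lists were chosen with earlier results of these data known. Named members were, in each comparison, the 6 largest rises and 6 largest falls among those called, at 1 CPM or more in the higher group and not overlapping, plus a set of main chains; list genes followed the same rule with 2 in each direction. Col5a1, Itgb1bp1, Itgb2l and the marker genes were named after their values were seen. Counts cover all members tested, but some members and list genes that meet the rule are not reported here.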

Additional observations from a re-analysis of the deposited data

Results flagged for a closer look

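In all, 9 results were singled out because the effect of BBR differed with and without OA by the interaction test of edgeR over all 12 libraries, which is the same as a differing effect of OA with and without BBR. The terms on the log2 scale were 0.56 for Col18a1, 0.34 for Col4a1, 0.45 for Col4a2, 0.59 for Itga1, -0.66 for Col27a1, -0.40 for Itga5, -0.37 for Itga3, -0.78 for Itga2 and -0.21 for Itgb1. Those of Col18a1, Col4a1, Col4a2, Col27a1 and Itga5 were kept without each library in turn. The adjusted p of Itgb1 reached 0.121 when 1 library was left out (without control replicate 1, 2 or 3 or OA replicate 2 or 3 or BBR replicate 2 or 3 or BBR+OA replicate 1). Groups of 3 libraries are too small for a search for outlying libraries.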

How the results depend on the processing

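No called value changed direction under any alternative run, while some values that were not called, such as Col11a2 with OA without BBR (main 0.30, range -0.02 to 0.58 log2 units), took either sign. When at least a 2-fold change was required as well, 3 members were higher and 5 lower with OA without BBR, 3 and 5 with BBR, 1 and 0 with BBR alone, 0 lower with BBR in the presence of OA, and 0 and 0 for the interaction, counts that the stricter threshold lowers by construction. Leaving out 1 library gave 9 to 11 members higher and 9 to 13 lower with OA without BBR, 8 to 9 and 12 to 14 with BBR, 4 to 8 and 6 to 7 with BBR alone, 0 to 1 and 1 to 4 with BBR in the presence of OA, and 3 to 6 and 2 to 6 for the interaction. Without OA replicate 2, 1 member was lower with BBR in the presence of OA, and the interaction gave 3 negative terms without control replicate 3 and 2 without OA replicate 2 or BBR replicate 2.

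Libraries share replicate numbers, and the main fits did not take these as pairs. Same-numbered libraries deviated together with correlations from 0.0535 to 0.183, which do not settle whether they were pairs. With the number as a replicate block, 3 members were higher and 4 lower with BBR in the presence of OA, while the other counts moved by less than 1.5 times, and no call of a member was lost. Over all features that comparison then gave 578 higher and 755 lower calls against 240 and 323. Every library correlated best with its own number in each comparison, which is a hint from the data and not from the design.

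Scaling of the family sums was added after seeing the data. With upper quartile scaling, summed collagen CPM was 508 in control and 499 in OA, the reverse of the order with TMM, and 523 in BBR+OA, while summed integrin CPM was 1710.3 and 1708 in control and OA. DESeq2 lost 4 of 23, 2 of 23, 1 of 13, 1 of 4 and 1 of 10 member calls in the order of the report. With OA without BBR these were Itga1, Itga6, Lama5 and Itga2 (DESeq2 adjusted p = 0.0556, 0.0599, 0.112 and 0.157). With OA in the presence of BBR they were Col11a2 (0.119) and Itga2 (0.125), and with BBR alone Itgb2l (0.0555). Itga2 was lost for BBR in the presence of OA (0.0621) and for the interaction (0.064). Members left out by filterByExpr (minimum count 10) were not tested at this depth, and some of them stood above the floor of 3 counts, 0.126 to 0.193 CPM. That floor covers counting error only.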
